A study of Homo sapiens with 12 samples.

Results

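The MHC class I presentation genes described here, which make, load or switch on the molecules that show peptides at the cell surface, were HLA-B, HLA-C, HLA-E, B2M, TAP1, TAP2, PSMB8, PSMB9 and NLRC5. They were taken by gene symbol, 9 rows of 58671 gene rows in the deposited table. No measured value served as a criterion, but the list was drawn up with earlier results of these data known. The cells were A549, an epithelial line from a human lung carcinoma, either as RNase L knockout cells (RLKO) or as the parental cells (WT). RNase L is an endoribonuclease that cuts single-stranded RNA once double-stranded RNA has been sensed. There were 4 groups of 3 samples, 12 in all: RLKO cells 6 h after transfection with poly(I:C) at 500 ng/ml, untreated RLKO cells, WT cells 6 h after the same transfection, and untreated WT cells. The agent is a man-made double-stranded RNA that cells sense as they do viral RNA. The sources used here do not say whether the knockout line is 1 clone. The table holds 1 level per gene and group, in FPKM (fragments per kilobase of transcript, scaled to library size, hence per length). That level pools the group's samples, so no value has a spread between samples, and the depth is unknown. The tests of poly(I:C) against untreated cells within a genotype are the authors' own, and the words rise and fall are kept for genes with q under 0.05 in the authors' deposited table. No difference between the genotypes was tested.

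MHC class I molecules show fragments of the cell's own proteins, or of a virus inside it, to CD8+ T cells. Proteasomes cut the proteins, the TAP1-TAP2 transporter moves the peptides into the endoplasmic reticulum, and there a peptide is loaded onto a heavy chain (HLA-B, HLA-C or HLA-E among them) bound to the light chain beta-2-microglobulin, the product of B2M. PSMB8 and PSMB9 encode catalytic subunits that interferon puts into the immunoproteasome in place of standard ones. NLRC5 is a transcriptional activator that works at class I promoters and is itself known to be induced by interferon.

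Promoters of 7 of the 9 members, with 250 bases before and 50 after the start, were found in the RefSeq promoter table (build GRCh38.p14), and none for HLA-E or NLRC5. The 200 bases before the start are given for B2M and HLA-C, the 2 members with both a promoter entry and a level of at least 1 FPKM, and for TAP1 and HLA-B, whose levels were at or near 0, so that the motifs of the 2 kinds can be read side by side. Where the table has 2 starts for a gene, as for TAP1, the first is shown. Each is written 5′ to 3′ on the gene's own strand, and capitals mark the core of the interferon-stimulated response element (GAAA, then 2 bases of any kind, then GAAA), an NF-kB site (GGGA, any base, T, 2 bases of any kind, CC) or a CCAAT box (CCAAT), searched on both strands.
B2M (chr15:44711317-44711516, plus strand): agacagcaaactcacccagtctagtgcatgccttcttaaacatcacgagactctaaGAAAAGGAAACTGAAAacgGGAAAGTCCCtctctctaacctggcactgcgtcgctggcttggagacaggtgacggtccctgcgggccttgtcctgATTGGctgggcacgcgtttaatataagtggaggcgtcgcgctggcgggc
HLA-C (chr6:31272093-31272292, minus strand): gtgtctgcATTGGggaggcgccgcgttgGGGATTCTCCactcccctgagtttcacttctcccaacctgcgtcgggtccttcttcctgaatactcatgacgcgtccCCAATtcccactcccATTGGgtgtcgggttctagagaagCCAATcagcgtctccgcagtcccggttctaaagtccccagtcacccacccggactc
TAP1 (chr6:32853705-32853904, minus strand): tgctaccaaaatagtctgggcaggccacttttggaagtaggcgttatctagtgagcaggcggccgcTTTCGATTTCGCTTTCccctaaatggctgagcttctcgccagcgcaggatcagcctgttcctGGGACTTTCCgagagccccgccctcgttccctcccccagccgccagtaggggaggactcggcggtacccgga
HLA-B (chr6:31357180-31357379, minus strand): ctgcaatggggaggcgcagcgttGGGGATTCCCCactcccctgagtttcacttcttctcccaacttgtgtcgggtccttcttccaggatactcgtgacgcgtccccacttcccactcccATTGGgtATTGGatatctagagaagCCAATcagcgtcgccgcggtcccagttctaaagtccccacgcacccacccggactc
In the B2M window overlapping matches to the response element core stood at -144 to -135 and -138 to -129 from the start, ahead of an NF-kB match at -125 to -116. The TAP1 window held that core on the opposite strand at -134 to -125 and -128 to -119, and the matches again overlap. HLA-C and HLA-B held no exact match to that core in these windows. Looser matches were not searched for, so the element cannot be called absent from them. Each had an NF-kB match, at -172 to -163 in HLA-C and at -176 to -167 in HLA-B, where the match on the opposite strand overlaps it. Both had CCAAT boxes at -56 to -52. Over the full windows the core was found in 4 of the 7 members (B2M, PSMB8, TAP1 and TAP2) and in 3.57% of all 35116 promoters. The NF-kB motif was in 4 of 7 and 5.13% of all, CCAAT in 5 of 7 and 34.6%, the gamma-activated site TTCNNNGAA in 2 of 7 and 7.66%, and the cyclic AMP response element letters TGACGNNA in 0 of 7 and 7.55%. A member was counted if any of its starts had the match, and PSMB8 and TAP1 have 2 starts each. The share of all promoters counts each start by itself, so the member counts and these shares are not of the same kind. A match is a description of the letters and was not tested as a binding site.

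All 5 epithelial markers had at least 1 FPKM, with summed levels of 1609 FPKM in treated RLKO, 1633 in untreated RLKO, 584 in treated WT and 1174 in untreated WT cells. Of 14 markers of leucocytes, fibroblasts, endothelium and erythroid cells, ITGAM and COL1A1 reached 1 FPKM, with highest levels of 9.45 and 7.17 FPKM. Log2 changes are given on a spike-in scale, with ERCC RNAs as the common measure and a pseudocount of 1, so changes of low genes come out too small. On that scale the median change of the 12181 protein-coding genes that reached 1 FPKM in some group was -0.24 in RLKO and -0.70 in WT, against -0.10 and -0.17 in FPKM as deposited, and each change below is to be read against these. In bulk RNA, fewer cells and less RNA per cell cannot be told apart.

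Of the 9 members, NLRC5 rose after poly(I:C) in both genotypes, B2M was lower without passing the test in either, HLA-C was listed at 1.28 to 1.83 FPKM without a call, in a stretch of chromosome 6 where most genes are listed at 0, and the other 6 were listed at or near 0 in every group. NLRC5, B2M and HLA-C are the 3 members that reached 1 FPKM in some group. NLRC5 alone was called among the 9, and as a rise, in RLKO as in WT. Over the 22087 rows with at least 1 FPKM in some group, 0.512% rose in RLKO and 4.48% rose in WT, while 0.0272% fell in RLKO and 3.35% fell in WT. Among the 12181 protein-coding rows these shares were 0.821% and 4.27% for rises and 0.0246% and 3.09% for falls. No member fell, and no member other than NLRC5 had an unadjusted p under 0.05 in the authors' deposited table. The median change over all 9 members was 0 in each genotype, a value set by the listings at 0.

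**Figure D1:**
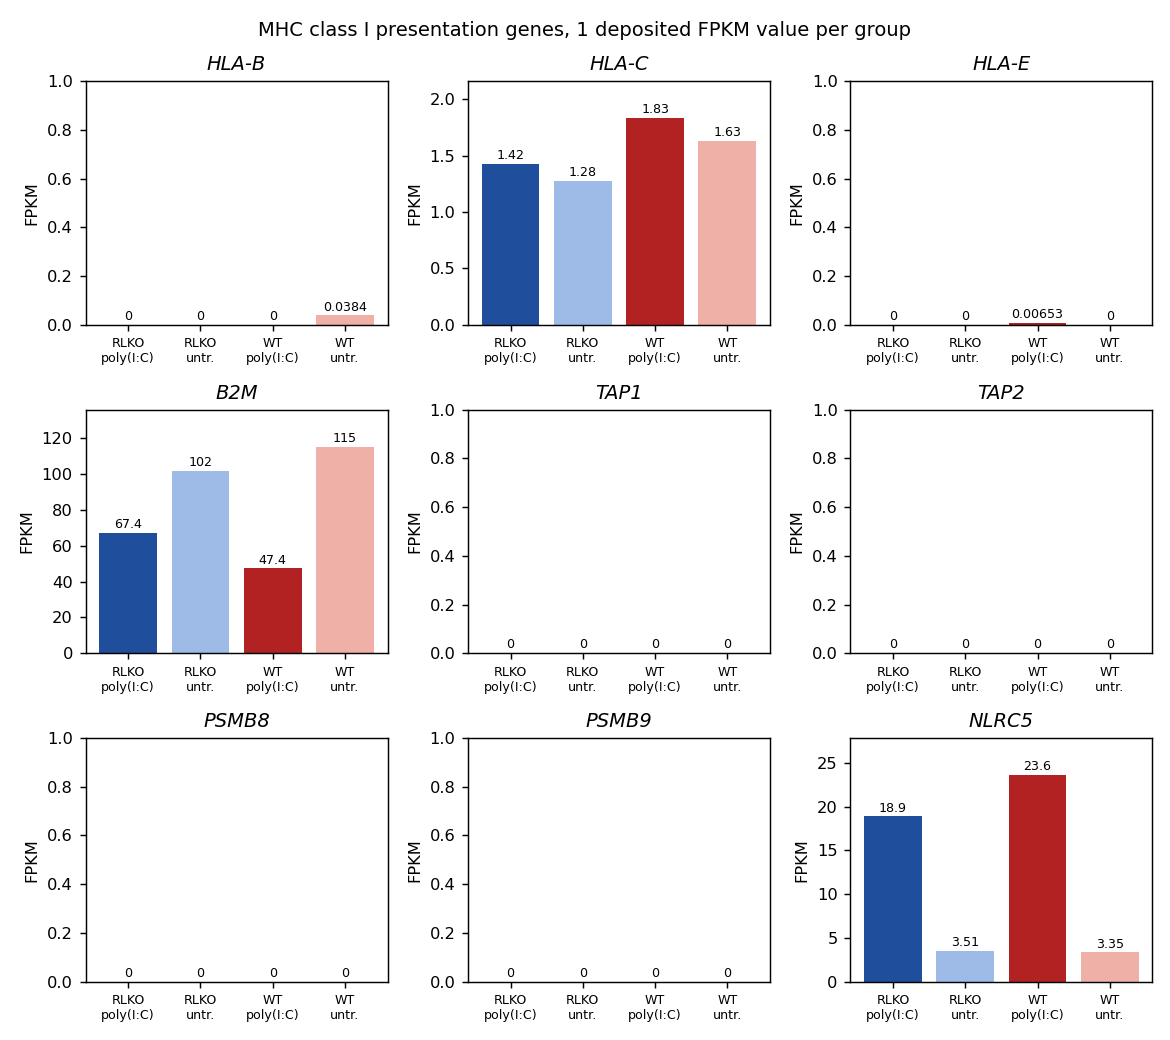
Levels of the 9 members in FPKM, 1 bar per group, with the deposited value printed above it and the vertical axis starting at 0 in every panel. NLRC5 stands at 18.9 and 23.6 FPKM in treated RLKO and WT cells against 3.51 and 3.35 FPKM in untreated ones, B2M is lower in treated than in untreated cells, and TAP1, TAP2, PSMB8 and PSMB9 are listed at 0 in every group.

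NLRC5 (chromosome 16, 56989485 to 57083531, GRCh38) was the member with the response. Its level was 18.9 FPKM in poly(I:C)-treated RLKO cells, 3.51 in untreated RLKO cells, 23.6 in treated WT cells and 3.35 in untreated WT cells. The untreated levels of the genotypes were close to each other, and both treated levels stood far above them. In FPKM this was a 5.37-fold rise in RLKO and a 7.04-fold rise in WT, and on the spike-in scale 4.75-fold and 4.60-fold. These folds were taken without a pseudocount. With the pseudocount of 1, the log2 changes on the spike-in scale were 1.98 in RLKO and 1.97 in WT. In the authors' deposited table the q-values were 0.0107 in RLKO and 0.00180 in WT, in each case the smallest value in that column, which 100 gene rows share in RLKO and 661 in WT. The NLRC5 response ranked 66 in RLKO and 166 in WT among the 12181 protein-coding genes, above 99.5% and 98.6% of them.

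The NLRC5 responses of the genotypes differed by 0.01 on the log2 spike-in scale (RLKO minus WT), while the median over protein-coding genes was 0.47. That sign is not fixed by the data, since the difference was -0.36 in FPKM as deposited and -0.13 with median-ratio scaling. In treated cells NLRC5 was lower in RLKO than in WT by all scalings run, by a log2 difference of -0.17 on the spike-in scale and of -0.31 in the deposited FPKM. These differences were not tested.

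B2M, the light chain shared by every class I molecule (chromosome 15, 44711487 to 44718877, GRCh38), was the most abundant member. It had 67.4 FPKM in treated RLKO cells, 101.7 FPKM in untreated RLKO cells, 47.4 FPKM in treated WT cells and 115.4 FPKM in untreated WT cells. The lowest level was in treated WT cells, and both treated levels lay under both untreated ones. On the spike-in scale, without a pseudocount, the treated level was 0.586 of the untreated one in RLKO and 0.268 in WT. With the pseudocount of 1, the log2 changes were -0.76 in RLKO and -1.87 in WT. The authors' deposited table made no call (unadjusted p = 0.186 and q = 1.00 in RLKO, p = 0.0758 and q = 0.318 in WT). In FPKM as deposited the WT change was -1.27, so part of its size comes with the spike-in scale.

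Set against the other protein-coding genes, 11.1% had a lower response than B2M in RLKO and 11.7% in WT. The B2M response was higher in RLKO than in WT by 1.11 on the log2 scale, beyond the median difference of 0.47 over protein-coding genes, and by 0.68 to 1.20 under the alternative settings. B2M was also higher in treated RLKO than in treated WT cells, by 0.64 on the spike-in scale and by 0.50 in the deposited FPKM, with protein-coding medians of 0.25 and 0.13. In untreated cells it was lower in RLKO than in WT, by a difference of -0.47 on the spike-in scale, where the protein-coding median was -0.24, and of -0.18 in FPKM as deposited, where it was 0.01. None of these genotype differences was tested. The core motif in the B2M promoter printed above is therefore set beside a level that was not called higher at 6 h, and nothing was measured here on its use.

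**Figure D2:**
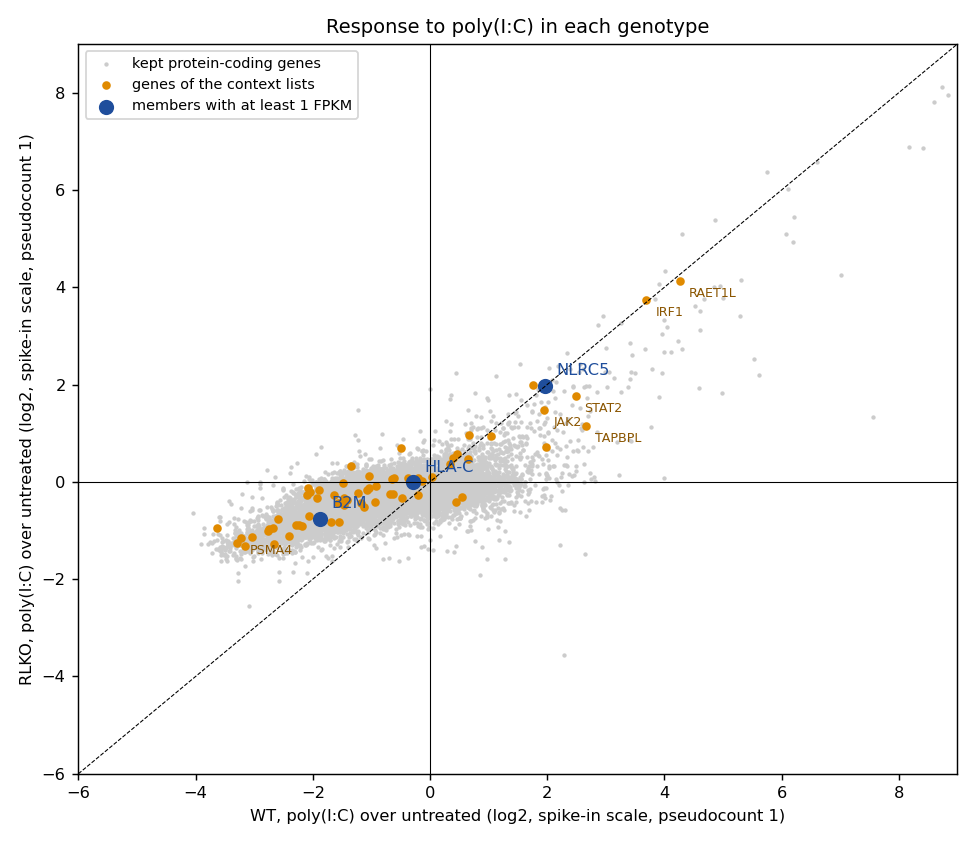
Change between treated and untreated cells (log2, scaled to the spike-ins, pseudocount 1) in RLKO cells (vertical) and WT cells (horizontal). Grey points are the 12181 protein-coding genes, orange points genes of the lists described in the text, blue points the 3 members with at least 1 FPKM, and the dashed line marks equal change. NLRC5 lies at 1.98 and 1.97, on the line, and B2M at -0.76 and -1.87, above it.

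HLA-C (chromosome 6, 31268749 to 31272130, GRCh38, minus strand), a classical heavy chain, was the only heavy chain among the members above 1 FPKM. Its levels were 1.42 FPKM in treated RLKO, 1.28 in untreated RLKO, 1.83 in treated WT and 1.63 in untreated WT cells. In FPKM as deposited both WT values were above both RLKO values. The log2 response was -0.01 in RLKO and -0.29 in WT on the spike-in scale, with signs that turn to 0.09 and 0.11 in FPKM as deposited and to 0.20 and 0.07 with median-ratio scaling. No call was made in the authors' deposited table (q = 1.00 in RLKO and 0.858 in WT). HLA-C was lower in RLKO than in WT by a log2 difference of -0.13 in treated and -0.40 in untreated cells, which was not tested. Of the 50-base words in its annotated transcripts, 5.70% also occur in transcripts of other genes, HLA-B first among them, and the annotated span of HLA-B (31269491 to 31357188, same strand) overlaps that of HLA-C, so reads of these genes may have been shared between them.

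The other heavy chains were barely registered. HLA-B, a classical heavy chain, was listed at 0 in treated RLKO, untreated RLKO and treated WT cells and at 0.0384 FPKM in untreated WT cells. HLA-E (30489467 to 30494205), a heavy chain that presents leader peptides of other class I chains to NK-cell receptors, was listed at 0 in treated RLKO, untreated RLKO and untreated WT cells and at 0.00653 FPKM in treated WT cells. The 4 peptide supply genes were listed at 0 in all groups: the transporter subunits TAP1 (32845209 to 32853978) and TAP2 (32821833 to 32838780), and the immunoproteasome subunits PSMB8 (32840717 to 32844703) and PSMB9 (32844136 to 32859585). All 6 lie on chromosome 6, carry the authors' mark for a gene not tested, and give no fold in either genotype.

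These listings at 0 followed position on the chromosome. Between GABBR1 and KIFC1 (chromosome 6, 29555629 to 33409924, an interval chosen after the values were seen and spanning the MHC), 133 of 157 protein-coding genes were listed at 0 in every group, or 84.7%. On the rest of chromosome 6 the count was 77 of 887 (8.68%). Over all protein-coding genes outside the interval, the rest of chromosome 6 included, it was 2109 of 19725 (10.7%). In the interval 4 genes, or 2.55%, reached 1 FPKM in some group, HLA-C, PRRC2A and CFB among them, against 63.5% on the rest of chromosome 6. The listings at 0 ran on past both ends of the interval. The nearest genes on either side of this stretch with at least 1 FPKM were ZSCAN12 before it and BAK1 after it. Between ZSCAN12 and BAK1, 155 of 182 protein-coding genes were listed at 0 in every group.

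Genes that every cell uses were in this stretch as well. RPS18, a ribosomal protein, TUBB, a tubulin, CSNK2B, a casein kinase subunit, and DDX39B, an RNA helicase, were listed at 0 in all groups, and BRD2, a bromodomain protein, at 0 in treated RLKO, untreated RLKO and treated WT cells and 0.00817 FPKM in untreated WT cells. A listing at 0 for HLA-B, HLA-E, TAP1, TAP2, PSMB8 or PSMB9 can therefore not be read as absence of the transcript from these cells. The same caution holds for HLA-C, since 149 of the 157 genes stayed under 0.1 FPKM, and whether its low level and its changes stand for the transcript was not tested. Of 50-base words in annotated transcripts, 31.3% were shared with other genes for TAP2, 18.2% for PSMB8, 17.8% for HLA-B, 9.78% for TAP1, 4.87% for HLA-E and 3.05% for PSMB9, and 5.70% for HLA-C and 0% for NLRC5 and B2M. The part of shared sequence in the listings was not tested, and the cause of the listings at 0 was not tested.

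**Figure D3:**
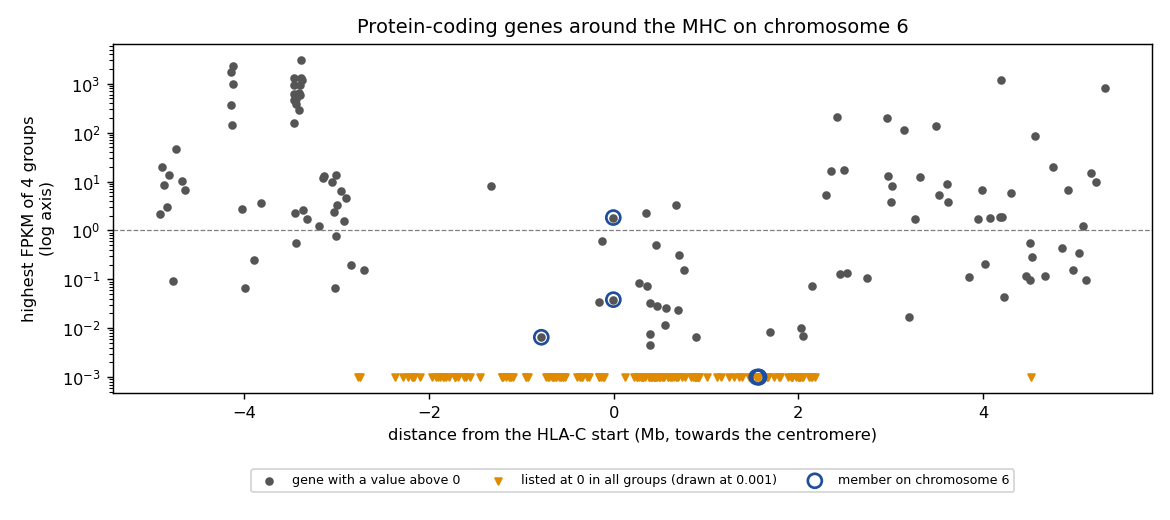
Highest FPKM of the 4 groups (log axis) for protein-coding genes around the MHC, by distance from the start of HLA-C in Mb. Orange triangles are genes listed at 0 in all groups, drawn at 0.001, circles mark the 7 members on chromosome 6, and the dashed line is at 1 FPKM. The triangles fill the interval that holds the members, with 133 of 157 genes between GABBR1 and KIFC1 at 0. They run on past both its ends, and most genes farther out on both sides carry values.

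Among the regulators that act on class I promoters, some rose as NLRC5 did, and most were not called. Of 16 regulators with at least 1 FPKM, 2 rose in RLKO, 3 rose in WT and 0 fell in either by the q-values of the authors' deposited table. At an unadjusted p under 0.05 there were 4 in RLKO and 6 in WT in either direction. Of the 22087 rows with at least 1 FPKM in some group, 317 were higher and 493 lower in RLKO at that threshold. In WT 2036 were higher and 2205 lower, and such counts in this and the other lists are to be read against these. IRF1, an activator at interferon-stimulated response elements, had 169 FPKM in treated RLKO, 10.4 in untreated RLKO, 228 in treated WT and 10.8 in untreated WT cells. It rose in both genotypes, by log2 3.73 in RLKO and 3.69 in WT (q = 0.0107 and 0.00180 in the authors' deposited table). In FPKM as deposited, IRF1 and NLRC5 each had nearly equal untreated levels in the genotypes. That was so of the median protein-coding gene as well, with a log2 difference of 0.01 (RLKO minus WT). On the spike-in scale the untreated difference was -0.33 for IRF1, -0.18 for NLRC5 and -0.24 for the protein-coding median.

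STAT2, a subunit of the factor that carries the type I interferon signal, had 38.1 FPKM in treated RLKO, 9.19 in untreated RLKO, 67.4 in treated WT and 7.22 in untreated WT cells. It rose in both genotypes, by log2 1.77 in RLKO and 2.48 in WT (q = 0.0107 and 0.00180 in the authors' deposited table). IRF9, the DNA-binding subunit of the same factor, was listed at 0 in every group.

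IRF2, which binds the same element as IRF1, had 22.9 FPKM in treated RLKO, 9.98 in untreated RLKO, 23.9 in treated WT and 9.60 in untreated WT cells, with no call. RFX5, a subunit of the factor through which NLRC5 acts at class I promoters, had 19.96 FPKM in treated RLKO, 17.4 in untreated RLKO, 26.5 in treated WT and 19.2 in untreated WT cells, with no call. CIITA, the class II counterpart of NLRC5, had 0.403 FPKM in treated RLKO, 0.669 in untreated RLKO, 2.01 in treated WT and 0.655 in untreated WT cells, again with no call (q = 0.280 in WT in the authors' deposited table). The median change over the 16 regulators was -0.00 in RLKO and -0.17 in WT, above the protein-coding medians of -0.24 and -0.70. In the list of 8 interferon receptors and JAK kinases with at least 1 FPKM, JAK2, a kinase of interferon-gamma signalling, was singled out after its values were seen, as the only call. It rose in WT, with 18.7 FPKM in treated RLKO, 5.33 in untreated RLKO, 29.3 in treated WT and 4.38 in untreated WT cells (q = 0.272 in RLKO and 0.0103 in WT in the authors' deposited table). The kinases JAK1 and TYK2, the most abundant of that list, were not called, with log2 changes of 0.12 and -0.25 in RLKO and -1.04 and -0.68 in WT. At an unadjusted p under 0.05 there was 1 gene of that list in each genotype, and its median change was 0.10 in RLKO and -0.66 in WT.

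Of 16 other class I heavy chains and class I-like genes, 4 (HLA-F, HLA-G, MICA and MICB) were listed at 0 in every group and 9 reached 1 FPKM. None of the 9 was called in either genotype in the authors' deposited table, and 1 in RLKO and 4 in WT had an unadjusted p under 0.05. RAET1L, a stress-induced ligand of the NK-cell receptor NKG2D, had 18.3 FPKM in treated RLKO, 0.0119 in untreated RLKO, 23.6 in treated WT and 0.0548 in untreated WT cells, yet was not called (q = 1.00 and 0.499 in the authors' deposited table). PROCR, the endothelial protein C receptor with a class I-like fold, had 33.8 FPKM in treated RLKO, 56.3 in untreated RLKO, 21.8 in treated WT and 70.4 in untreated WT cells, without a call. The 9 genes had median changes of 0.10 in RLKO and 0.03 in WT.

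In the list of peptide loading and trimming, 11 of 12 genes reached 1 FPKM, and TAPBP (tapasin), in the same stretch of chromosome 6, was at most 0.0102 FPKM in any group. In WT, 1 of the 11 rose and 1 fell, and in RLKO 0 were called, with 1 gene in RLKO and 5 in WT at an unadjusted p under 0.05. TAPBPL, a tapasin-related peptide editor on chromosome 12, had 7.73 FPKM in treated RLKO, 2.55 in untreated RLKO, 38.4 in treated WT and 3.31 in untreated WT cells. It rose in WT by log2 2.66 (q = 0.00754 in the authors' deposited table) and had a log2 change of 1.15 in RLKO, without a call. CANX, the chaperone calnexin that holds new heavy chains, had 40.2 FPKM in treated RLKO, 44.8 in untreated RLKO, 18.9 in treated WT and 49.2 in untreated WT cells. It fell in WT by 1.93 on the log2 scale (q = 0.0313 in the authors' deposited table), with a change of -0.33 in RLKO that was not called. The median of the list was -0.20 in RLKO and -1.23 in WT.

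The standard proteasome, the counterpart of the immunoproteasome subunits listed at 0, was well measured, and 4 of its subunits fell in WT. PSMB5, the standard subunit that PSMB8 replaces, had 251 FPKM in treated RLKO, 431 in untreated RLKO, 104 in treated WT and 440 in untreated WT cells. PSMB6, replaced by PSMB9, had 209 FPKM in treated RLKO, 372 in untreated RLKO, 93.9 in treated WT and 422 in untreated WT cells. PSMB7, replaced by PSMB10, had 220 FPKM in treated RLKO, 419 in untreated RLKO, 115 in treated WT and 402 in untreated WT cells. For each of these the levels of both treated groups lay below those of both untreated groups, with treated WT lowest, and none was called (q in WT 0.0560 for PSMB5, 0.0737 for PSMB6 and 0.0951 for PSMB7 in the authors' deposited table). PSMB10, the immunoproteasome subunit encoded outside the MHC on chromosome 16, had 23.1 FPKM in treated RLKO, 22.4 in untreated RLKO, 11.6 in treated WT and 34.7 in untreated WT cells. Its log2 change was -0.13 in RLKO, where the sign turns under other scalings, and -2.09 in WT, with no call. The 7 genes with at least 1 FPKM in this list of activator, inducible and matched standard subunits had medians of -0.95 in RLKO and -2.41 in WT and 0 calls, with 1 gene in RLKO and 4 in WT at an unadjusted p under 0.05. PSME1 and PSME2, the interferon-inducible proteasome activator, were listed at 0 in every group.

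Of 11 other subunits of the 20S core, PSMB3 was listed at 0 in every group. Of the 10 with at least 1 FPKM, 4 fell in WT and 0 were called in RLKO in the authors' deposited table, and at an unadjusted p under 0.05 there were 10 in WT and 0 in RLKO. PSMA4 had 462 FPKM in treated RLKO, 908 in untreated RLKO, 171 in treated WT and 1054 in untreated WT cells, and its log2 change was -1.15 in RLKO and -3.23 in WT (q in WT 0.0214 in the authors' deposited table). PSMA5, PSMA7 and PSMB4 also fell in WT, with log2 changes of -3.29, -2.09 and -2.59 and q-values of 0.0344, 0.0386 and 0.0481 in the authors' deposited table. The median over the 10 subunits was -0.96 in RLKO and -2.71 in WT, each below the protein-coding median of its genotype. The RLKO response was higher than the WT response in 10 of 10, by a median of 1.83, against 0.47 over protein-coding genes. In each of the other lists, too, more genes had the higher response in RLKO than in WT. These differences were not tested.

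**Figure D4:**
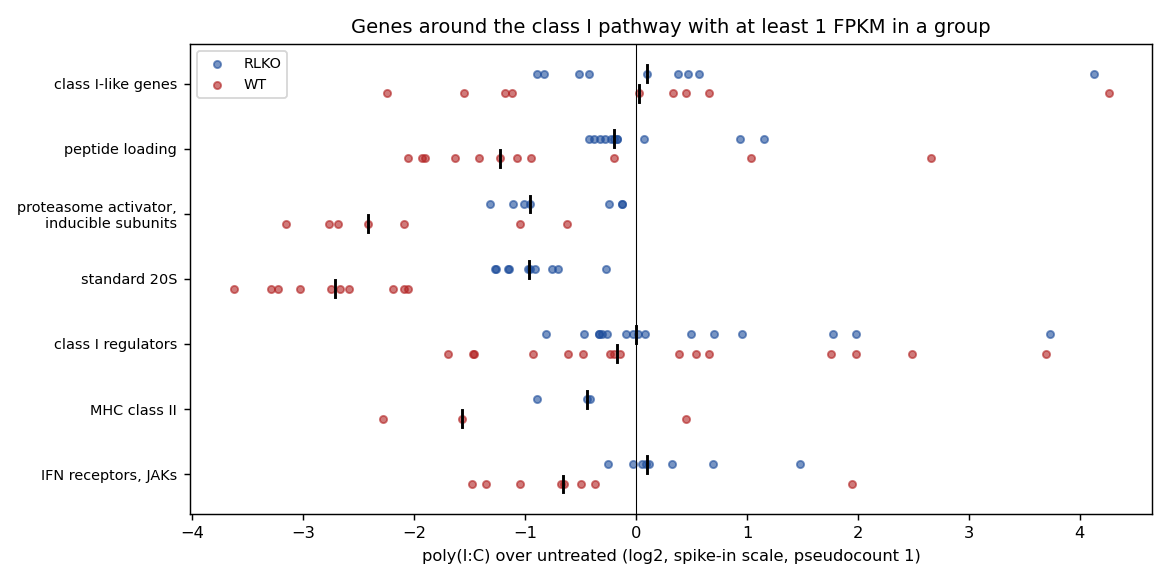
Log2 change after poly(I:C) on the spike-in scale, 1 point per gene with at least 1 FPKM in a group, RLKO (blue) above WT (red) in each list, with a black bar at the median. The standard 20S subunits have medians of -0.96 in RLKO and -2.71 in WT, and the class I regulators -0.00 and -0.17, with IRF1 at the right end of its list.

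MHC class II genes gave little to compare. Of 13 genes, 10 were listed at 0 in every group, all of them on chromosome 6, and 3 reached 1 FPKM. None of the 3 was called in the authors' deposited table, with 1 in RLKO and 2 in WT at an unadjusted p under 0.05. CTSS, a protease of the class II pathway, had 12.99 FPKM in treated RLKO, 22.2 in untreated RLKO, 7.27 in treated WT and 26.1 in untreated WT cells. IFI30, a thiol reductase, had 20.4 FPKM in treated RLKO, 24.8 in untreated RLKO, 7.08 in treated WT and 15.3 in untreated WT cells.

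The genes whose pattern was most like that of a member were sought among 11419 protein-coding genes that averaged 1 FPKM or more and had no value at 0, by the Euclidean distance over 3 log2 values, the RLKO response, the WT response and the untreated RLKO minus WT difference. HCAR2 and HIST1H2AE were nearest to NLRC5, at distances of 0.181 and 0.198. HCAR2 had 3.66 FPKM in treated RLKO, 0.184 in untreated RLKO, 5.44 in treated WT and 0.226 in untreated WT cells, and both genes rose in each genotype in the authors' deposited table. Each belongs to a family with near-identical copies, so its level is uncertain. ANAPC10 and GTPBP10 were nearest to B2M, at 0.0514 and 0.0568, and TMC7 and JADE1 nearest to HLA-C, at 0.0320 and 0.0338. The distances rest on 1 pooled value per group, so how far they would move between samples is unknown.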

How the data were processed

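Total RNA of 12 samples was sequenced after rRNA depletion with ERCC spike-in RNA added, per the labels. Trimmomatic 0.32, TopHat2 2.0.6, Bowtie2 2.0.2, Cuffdiff 2.2.1 and FastQC are named per the submitters' processing notes, with GRCh38.p12. The deposited table gives FPKM as 1 pooled value per group, per the file headers, with the authors' p-values and q-values for poly(I:C) against untreated cells in each genotype. It also holds the authors' normalised folds, used for 1 alternative. Its GC content, deposited in percent, was not used. The sources used here do not give depth, strandedness or Cuffdiff settings. The planned tests across samples gave way to the authors' q-values, threshold 0.05, because no sample has its own value.

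Rows marked HIDATA (86) and repeated identifiers (45) were left out, and rows with at least 1 FPKM in a group were kept. For the spike-in scale, 49 ERCC rows averaging 1 FPKM or more were set relative to their geometric mean across groups, the median of these ratios gave the divisor of a group, and log2 changes used a pseudocount of 1. The scaling was tested on simulated data. Gene classes and positions are from GENCODE v29 on GRCh38. Members and lists were chosen with earlier results of these data known. All members and 14 fixed genes were named, and from each list up to 4 genes past the threshold or, where fewer than 2 passed, the 2 most abundant. Some genes of that rule are not reported here. JAK2, the MHC interval and its genes were named after values were seen. Planned protein sequences were not used here. Python 3.11 was used.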

Additional observations from a re-analysis of the deposited data

How the results depend on the processing

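No paired analysis was possible because the table holds 1 value per group, and for the same reason no replicate could be left out. Of 924 values of 28 named genes recomputed under other scalings and pseudocounts, 881 kept direction and size, 32 moved and 11 turned sign. Those that turned were HLA-C (0.089 in RLKO and 0.11 in WT in FPKM as deposited, 0.20 and 0.065 with median-ratio scaling), RFX5 in WT (0.45 and 0.38 under the same settings), PSMB10 in RLKO (0.042 and 0.23) and, with median-ratio scaling alone, TYK2 (0.10), CANX (0.035) and PSMA7 (0.10) in RLKO. These scalings lift all genes together, as the median over protein-coding genes in WT was -0.17 in FPKM as deposited, against -0.70. At q under 0.01 the called members in RLKO numbered 0, against 1 as reported, since the smallest q in that column is 0.0107, while the count in WT stayed at 1. Over the whole table, q under 0.01 left 0 rises and 0 falls in RLKO and 626 rises and 247 falls in WT, and an unadjusted p under 0.05 gave 317 rises and 493 falls in RLKO and 2036 rises and 2205 falls in WT. With pooled values, no result could be set against the spread between samples.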

Other observations

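Listings at 0 were also found in other places that touch the pathway. Around IRF9 on chromosome 14, 36 of 38 consecutive protein-coding genes from DHRS4 to NFATC4 (23953586 to 24379604) were listed at 0 in every group and 38 of 38 stayed under 0.1 FPKM, PSME1 and PSME2 among them. PSME1 shares 0% and PSME2 6.36% of its 50-base words with other genes. In the pseudoautosomal regions 16 of 18 protein-coding genes were listed at 0. Of 76 cytosolic ribosomal protein genes 4 were at 0, among them RPL7A on chromosome 9, RPS18 on 6 and RPS25 on 11, as was POLR2A, the largest subunit of RNA polymerase II. What these places share was not tested.

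CFB, the complement factor B gene within the MHC interval, had 1.93 FPKM in treated RLKO, 0.0227 in untreated RLKO, 3.37 in treated WT and 0.0990 in untreated WT cells, without a call in the authors' deposited table (q = 1.00 in RLKO and 0.212 in WT). PRRC2A had 1.86 FPKM in treated RLKO, 2.10 in untreated RLKO, 2.29 in treated WT and 2.25 in untreated WT cells.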
